A study of Mus musculus with 4 samples.

Results

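Epithelial-mesenchymal transition (EMT) is the change by which epithelial cells lose their junctions and polarity and become motile. Zinc finger repressors of the Snail family (Snai1, Snai2 and Snai3), basic helix-loop-helix factors of the Twist family (Twist1 and Twist2) and zinc finger homeobox repressors (Zeb1 and Zeb2) are known to drive it, in part by repressing Cdh1, which encodes the junction protein E-cadherin. Cdh2 (N-cadherin) and Vim (the intermediate filament vimentin) mark the mesenchymal state, whereas embryonic stem cells (ESCs) grow as compact colonies held together by E-cadherin. Wapal is the factor that releases the cohesin ring from chromatin, and cohesin together with the zinc finger protein CTCF forms the bases of chromatin loops.

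Binding of Wapal was examined around these 10 genes, which were chosen by symbol from the 22380 protein-coding genes of GENCODE M1 on the mm9 genome build. A protein that carries the Flag/Bio tag is biotinylated inside the cell by the bacterial ligase BirA, and after crosslinking it is pulled down on streptavidin with the DNA around it (bioChIP-seq). The samples were 2 independently derived clones of mouse ESCs that carried tagged Wapal (FB Wapal) together with BirA, 1 line with BirA alone, which serves as the control for the pulldown, and 1 input of sheared genomic DNA, whose label names the same Wapal modification. All were gelatin-adapted ESCs grown under standard conditions, and the labels give no EMT-inducing treatment and no differentiated cells. Both FB Wapal clones were joined in 1 list of 8497 regions, and the BirA line gave a list of 266. The lists hold a position and a MACS score for each region and no read count, so the depth behind a region is unknown and no spread between clones or p-value can be given. The score is the negative log10 of the peak p-value multiplied by 10, and it compares regions only within a list. The rule that joined the clones is not given, so a region may rest on 1 clone. Scores in the joined list may then come from different libraries, which limits their ranks and ratios. Binding too weak to be called is absent from the lists, so a gene without a site is not shown to lack Wapal. After the 174 regions that overlapped a BirA region by 1 bp or more were set aside, 8323 Wapal-binding sites were left, of which 7 lay within 100 kb of the transcription start site (TSS) of a member gene. No BirA region and no removed region lay within 100 kb of any of the 10 TSSs, and the nearest BirA region was 0.61 Mb away, at Cdh2.

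The 7 sites are introduced here by the sequence around the best match to the CTCF core motif in each, since this motif is the feature most of them share. Each line gives 60 bases of the mm9 forward strand, 5′ to 3′, with the 12 bases of the match in capitals. The matches at Twist2, Cdh1 and Vim are on the reverse strand.
Snai1 (chr2:167357834-167357893): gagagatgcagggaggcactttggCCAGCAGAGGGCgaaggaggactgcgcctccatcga
Snai2 (chr16:14701560-14701619): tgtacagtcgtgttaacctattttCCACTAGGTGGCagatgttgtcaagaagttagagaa
Snai3 (chr8:125024931-125024990): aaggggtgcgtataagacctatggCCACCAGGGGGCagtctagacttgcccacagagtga
Twist2 (chr1:93771396-93771455): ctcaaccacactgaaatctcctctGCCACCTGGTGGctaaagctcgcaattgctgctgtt
Cdh1 upstream (chr8:109054656-109054715): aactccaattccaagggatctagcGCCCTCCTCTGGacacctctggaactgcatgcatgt
Cdh1 intron (chr8:109171470-109171529): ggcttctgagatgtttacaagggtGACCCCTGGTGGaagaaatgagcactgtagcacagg
Vim (chr2:13518812-13518871): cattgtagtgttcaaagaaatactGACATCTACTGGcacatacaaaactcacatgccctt
The matches at Snai1, Snai2, Snai3 and Twist2 were exact, those in the Cdh1 intron and at Vim had 1 mismatch, and that upstream of Cdh1 had 2. None of the 7 windows overlapped an annotated exon.

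Of the 10 genes, 6 had a Wapal-binding site within 100 kb of the TSS (Snai1, Snai2, Snai3, Twist2, Cdh1 and Vim) and 4 had none (Twist1, Zeb1, Zeb2 and Cdh2). Over all protein-coding genes the share with a site in that window was 60.0%, so the count of members was at the background. Within 50 kb, 5 members had a site against 38.7% of protein-coding genes, and within 10 kb 2 members (Snai1 and Snai2) against 9.12%. The median distance from TSS to nearest site was 58.2 kb for the members and 72.5 kb for protein-coding genes (quartiles 28.9 to 168.7 kb). The members fell into 6 between 3985 bp and 72.9 kb and 4 between 382.2 and 591.8 kb, with none in between. Only 3.73% and 4.97% of protein-coding genes had a nearer site than Snai2 and Snai1, whereas 90.8% to 94.7% had a nearer site than the 4 members without one in the window. No site covered a member TSS or came within 2 kb of one. With sites of a score of at least 100 alone, Snai2 was the single member with a site within 10, 50 or 100 kb, against 3.09%, 15.2% and 27.8% of protein-coding genes. The nearest site was upstream at 3 members, the Snail genes, and downstream at the other 7, and it was upstream at 50.9% of protein-coding genes.

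**Figure D1:**
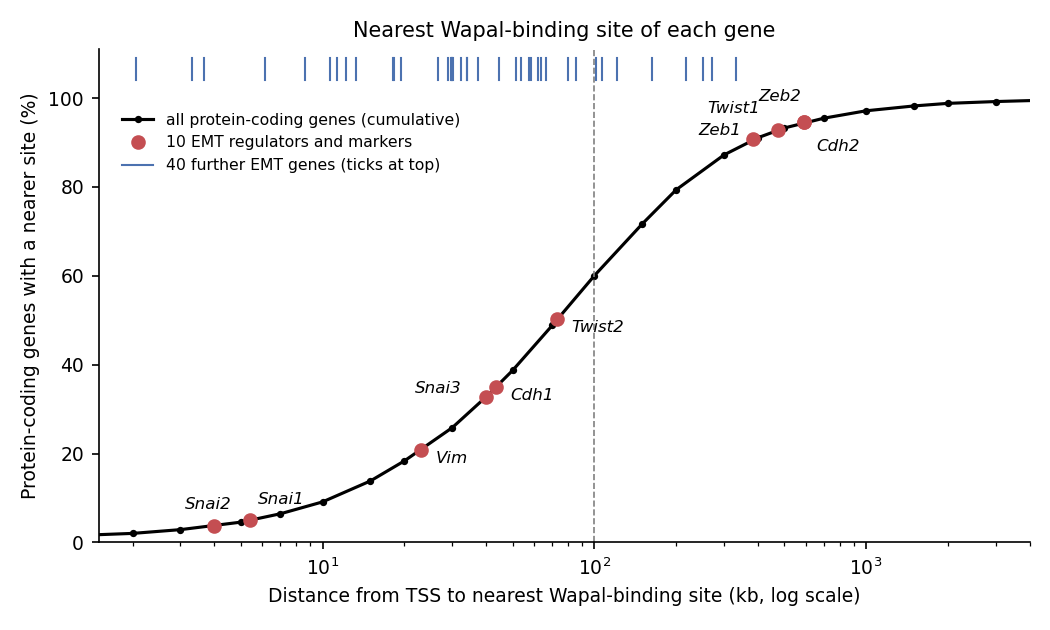
Distance from the TSS to the nearest Wapal-binding site (x axis, kb, log scale) against the percentage of protein-coding genes with a nearer site (y axis). The black curve is all 22380 protein-coding genes, red points are the 10 members, blue ticks are 40 further EMT genes and the dashed line marks 100 kb. Snai2 and Snai1 sit at the low end at 3985 and 5392 bp, and Zeb1, Twist1, Zeb2 and Cdh2 sit together at the high end between 382.2 and 591.8 kb.

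**Figure D2:**
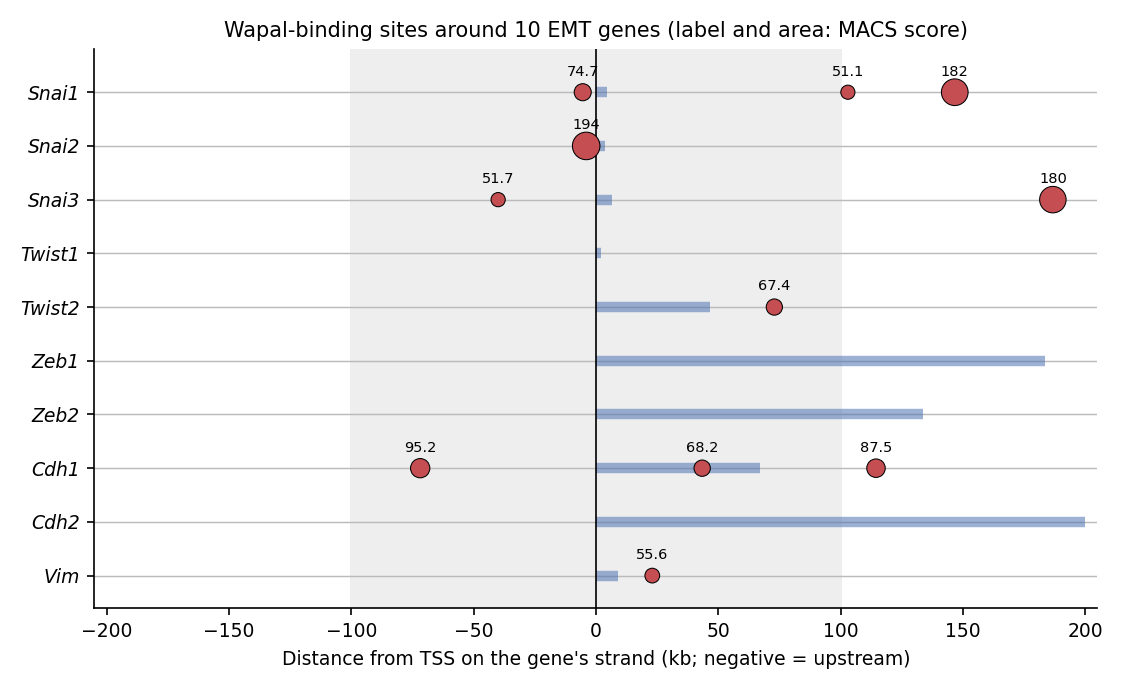
Wapal-binding sites within 200 kb of each member TSS, placed by the distance of the nearer edge (x axis, kb on the strand of the gene, negative upstream). Circles are sites, with area and label giving the MACS score, blue bars are gene bodies (that of Cdh2 is cut at 200 kb) and grey shading is the 100 kb window. The Snai2 site at 194 has the highest score inside the shading, and the rows of Twist1, Zeb1, Zeb2 and Cdh2 hold no circle.

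Among the Snail genes, Snai2 and Snai1 each had a site a few kilobases upstream of the TSS, and the Snai3 site lay farther away and inside another gene. Snai2 (also called Slug, a regulator of neural crest and mesoderm migration) is on chr16:14705945-14709488, forward strand. Its site, chr16:14701274-14701960, was 687 bp wide with a score of 194, extragenic, and ended 3985 bp upstream of the TSS. Snai1, the founding vertebrate Snail factor that acts in gastrulation, is on chr2:167363695-167368314, forward strand. Its site, chr2:167357432-167358303, was 872 bp wide with a score of 74.65, extragenic, and ended 5392 bp upstream. Both sites had their own Snail gene as the nearest protein-coding TSS. Snai3, the member of the family with the least established role in EMT, is on chr8:124978106-124984592, reverse strand. Its site, chr8:125024566-125025389, was 824 bp wide with a score of 51.7 and lay 39.97 kb upstream, in introns of Fam38a (now Piezo1, a mechanically gated ion channel) and of the long transcription unit Gm20388. The TSSs of Rnf166 and Ctu2 lay between this site and Snai3, and that of Ctu2, a tRNA thiolation gene, was the nearest at 24.9 kb from the centre of the site.

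Set side by side, the Snai3 site was 10.0 times as far from its TSS as the Snai2 site, and the Snai1 site 1.35 times as far. The score at Snai2 was 2.6 times that at Snai1 and 3.75 times that at Snai3. Since the score is a logarithm of a p-value, these ratios are not folds of binding. The Snai2 score was above that of 94.2% of all sites, whereas Snai1 was above 42.2% and Snai3 above 3.41%, close to the lowest score that the peak caller admits. With scores of at least 100, the nearest sites of Snai1 and Snai3 moved to 146.7 and 186.8 kb on the other, downstream side, where sites of 182 and 180 stood, and Snai2 kept its own. The surroundings differed as well. The 200 kb centred on the Snai2 TSS held no other protein-coding TSS, against 3 at Snai1 and 8 at Snai3, and its GC content was 39.4% against 51.1% and 52.3%. These values rest on 1 list and 1 gene each, and no test of the differences was possible.

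The Twist genes differed in whether a called site lay within 100 kb of the TSS. Twist2 (Dermo1, a factor of dermal and bone precursors) is on chr1:93698038-93744605, forward strand. Its site, chr1:93770979-93771861, was 883 bp wide with a score of 67.4, began 72.9 kb downstream of the TSS and 26.4 kb past the end of the gene, and was extragenic. The nearest protein-coding TSS to it was that of the shorter of the 2 GENCODE entries named Hdac4, a histone deacetylase gene, at 56.3 kb. Twist1, a factor of cranial mesenchyme and limb mesoderm, is on chr12:34642536-34644682, forward strand, and had no site within 100 kb. Its nearest site was 474.8 kb downstream, at chr12:35117358-35117922 with a score of 57.6, inside an intron of Hdac9. The next on the other side was almost as far, 476.2 kb upstream at chr12:34165842-34166375, with a score of 134. Hdac9, like Hdac4, encodes a class IIa histone deacetylase, and each is transcribed toward its Twist neighbour. The gap between gene bodies was 87.8 kb for Twist1 and Hdac9 and 84.7 kb for Twist2 and the longer Hdac4 entry. The single site in the Twist2 to Hdac4 gap thus had no counterpart between Twist1 and Hdac9.

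The nearest site of Twist1 was 6.51 times as far away as that of Twist2, a difference of 401.9 kb. This order depended on the score. With sites of at least 100 the nearest site of Twist2 was 1150 kb away, upstream, and that of Twist1 476.2 kb, so that Twist1 was then the nearer by 674 kb. The nearest sites themselves had similar scores, of 57.6 for Twist1 and 67.4 for Twist2.

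Zeb1 and Zeb2, large genes whose products bind E-boxes of the Cdh1 promoter, both lay far from any site. Zeb1 is on chr18:5591858-5775465, forward strand, and is 183.6 kb long. Its nearest site, chr18:5974039-5974617, began 382.2 kb downstream of the TSS and 198.6 kb past the end of the gene, with a score of 63.9. The upstream neighbour, chr18:5161788-5164067 at 427.8 kb, was 2280 bp wide, wider than 99.0% of sites, with a score of 149 and its centre in an exon of the long noncoding RNA gene Gm16954. Zeb2 is on chr2:44839154-44972915, reverse strand, and is 133.8 kb long. Its nearest site, chr2:44380560-44381507, was 591.4 kb downstream with a score of 76.05, and the upstream one was 2374 kb away. No site lay within either gene body.

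The classical cadherins differed in distance and in number of sites, Cdh1 with a site nearer than that of the median protein-coding gene and Cdh2 with none in the window. Cdh1, the only member with more than 1 site within 100 kb, is on chr8:109127251-109194146, forward strand. The first site, chr8:109054159-109055414, was 71.8 kb upstream with a score of 95.2 and lay in an intron of Cdh3, the gene of P-cadherin, whose TSS was 20.0 kb from its centre. The second, chr8:109170694-109171959, was 43.4 kb downstream of the Cdh1 TSS in an intron of Cdh1 itself, with a score of 68.2, and it was the only site inside the body of a member. The nearest TSS to this intronic site was not that of Cdh1 but that of Tmco7, 35.6 kb away. At 1256 and 1266 bp the Cdh1 sites were the widest of the 7. Cdh2, which encodes N-cadherin, is on chr18:16747386-16967755, reverse strand, and at 220.4 kb is the longest member. No site lay in it or within 100 kb of its TSS. The nearest, chr18:16375288-16375966 with a score of 112, was 591.8 kb downstream, 13.6 times the distance at Cdh1, and fell to 452.6 kb when the TSS of any transcript of Cdh2 was allowed.

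Vim is on chr2:13495554-13504453, forward strand. Its site, chr2:13518591-13519226, was extragenic, 636 bp wide with a score of 55.6, and began 23.0 kb downstream of the TSS and 14.1 kb past the end of the gene. Vim was the nearest protein-coding TSS to it. The next site upstream, in an intron of Cubn, the gene of the intestinal receptor cubilin, was 274.3 kb away.

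Over the 7 sites, 4 were upstream and 3 downstream, 4 extragenic and 3 in introns, and 3 had the member as their nearest protein-coding TSS. The shares of these classes over all sites are not given here, so the counts describe the 7 sites only. The scores ran from 51.7 to 194 with a median of 68.2, and 5 of the 7 were below the median of all sites, 81.4 (quartiles 62.5 to 115.7). The widths ran from 636 to 1266 bp with a median of 872 bp, and 5 of the 7 were above the median of all sites, 812 bp (quartiles 715 to 933 bp). Snai2 had the highest score and the second lowest width, whereas the upstream site of Cdh1 was second in both score and width. At the edge of the 100 kb window, the outermost sites inside were those of Twist2 at 72.9 kb and Cdh1 at 71.8 kb, and the first outside were at 103.0 kb from Snai1, with a score of 51.1, and at 114.5 kb from Cdh1, with a score of 87.5.

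**Figure D3:**
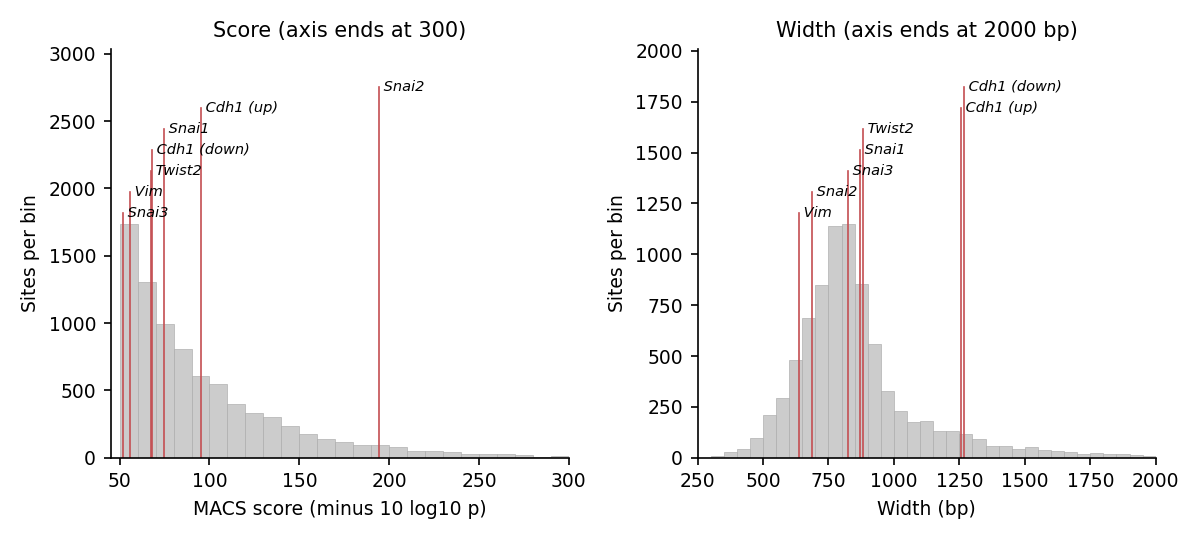
Histograms of MACS score (left, bins of 10) and width in bp (right, bins of 50) of all 8323 Wapal-binding sites, with the 7 sites near members as red lines (the lines' heights only separate the names). Snai2 lies in the upper tail of the scores at 194, 5 of the 7 lines fall below the median score of 81.4, and both Cdh1 sites lie in the upper tail of the widths.

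The sequence of the sites was searched for the CTCF core motif on both strands of mm9. With no mismatch, 4 of the 7 member sites held it, against 28.3% of the full set and 0.745% of intervals as wide taken 5 kb to either side. With at most 1 mismatch the count was 6 of 7, against 74.5% and 10.0%, and with at most 2 it was 7 of 7, against 96.5% and 49.7%. The exact matches lay 4 to 28 bp from the centres of their sites, and those with 1 or 2 mismatches 67 to 173 bp. The letters varied within the motif. Among the exact matches, Snai1 and Snai2 shared 8 of 12 letters read on the strand of the motif, and Snai3 shared 10 with each of them. Twist2 shared 9 with Snai1, 11 with Snai2 and 11 with Snai3. The motif fixes 8 letters and allows a choice at the rest, so any exact matches share at least 8. The Snai2 site held a second match of 1 mismatch, 69 bp from the first on the same strand. At Twist2 the second match, also of 1 mismatch, overlapped the exact one by all but 1 base on the opposite strand, which leaves the direction of that motif less certain than the others.

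Read from its 5′ end, the best motif pointed toward the member's TSS at Snai1, Snai2, Twist2, Vim and the Cdh1 intron, and away from it at Snai3 and upstream of Cdh1. The share of each direction at sites near other genes is not given here. Upstream of Cdh1 the direction rests on a match with 2 mismatches, a level also met in 49.7% of the intervals 5 kb away. The exact motif lay 5826 bp from the TSS at Snai1 and 4350 bp at Snai2, in the same direction at both.

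Exact copies of the motif were also counted without regard to binding. Within 100 kb of the 10 TSSs there were 8, all of them near the 6 members with a site, and 4 of the 8 lay in a site. Motifs inside a site fall near members with a site by definition. The other 4 lay outside any site, 1 at Snai1, 2 at Cdh1 and 1 at Vim. Twist1, Zeb1, Zeb2 and Cdh2 had no exact motif in the window. Such windows were common, at 28.7% of protein-coding genes, and of these genes 60.4% had no site within 100 kb, against 31.7% of genes with 1 or more exact motifs. In the genome as a whole, including motifs far from any site, 18.4% of 13023 exact motifs lay in a site. All 8 motifs near members lay in windows that hold a site, so this share is not their like background. With at most 1 mismatch, the windows of the 4 members without a site held 7 to 14 motifs and those of the 6 with a site 14 to 44, where the median protein-coding gene had 24 (quartiles 15 to 34). Snai2, with 14, had as few as Zeb1.

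Base composition and gene density of the same windows were set beside these counts. Shares for gene density over protein-coding genes with and without a site are not given here. The GC content of the window was below the median of protein-coding genes, 44.2%, at 4 of 4 members without a site (39.2% to 41.0%) and at 2 of 6 with one (Snai2 at 39.4% and Vim at 40.1%). Among all protein-coding genes, 62.9% of those without a site and 41.4% of those with one were below it. Zeb2, Cdh2, Snai2 and Twist2 had no other protein-coding TSS within 100 kb, Twist1 and Zeb1 had 1, Snai1, Cdh1 and Vim had 3, which was the median of protein-coding genes, and Snai3 had 8. The part of motif number, of base composition and of gene density in the presence of sites was not tested.

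**Figure D4:**
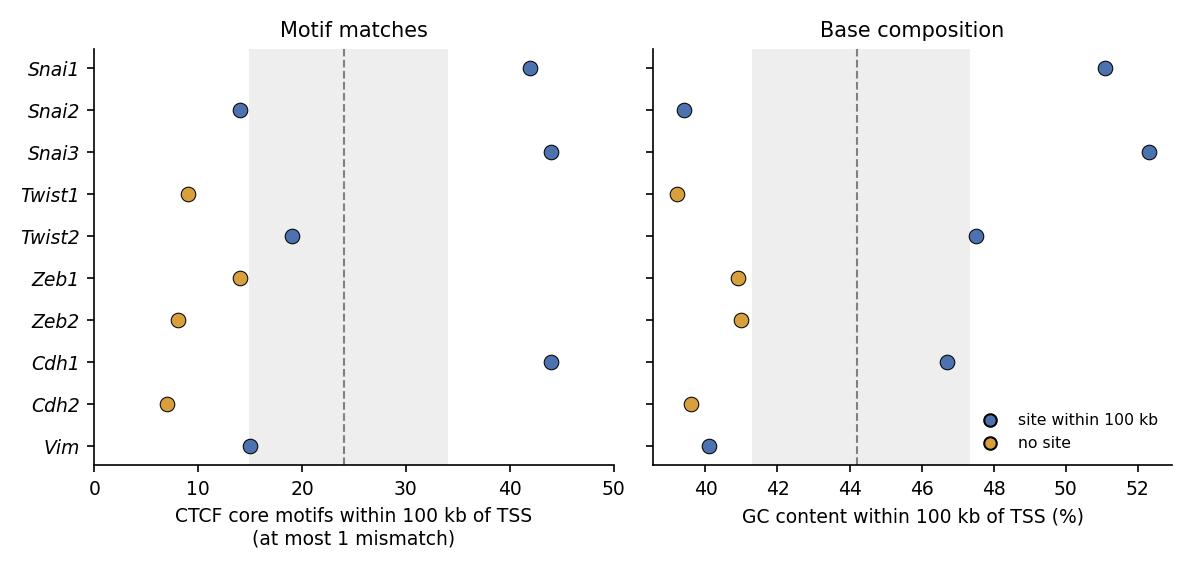
CTCF core motifs of at most 1 mismatch (left, count) and GC content (right, %) within 100 kb of each member TSS. Blue points have a Wapal-binding site in the window and orange points do not, and the dashed line and grey band are the median and quartiles of protein-coding genes. The 4 orange points lie below both bands, as do Snai2 (14 motifs) and, for GC content, Vim.

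The stretch around each TSS free of sites, from the nearest site upstream to the nearest downstream, ranged from 0.108 Mb at Snai1 to 2.97 Mb at Zeb2. The median over members was 607.7 kb and over protein-coding genes 368.2 kb (quartiles 187.3 to 702.1 kb), and 6 of 10 members were above the latter. Snai1 and Cdh1 (0.115 Mb) had the shortest stretches, and 10.8% and 12.1% of protein-coding genes had shorter ones. Snai3 (0.227 Mb) and Vim (0.297 Mb) also lay below the median. Snai2, although it had the nearest site of all, lay at 0.405 Mb in a stretch 3.74 times that of Snai1, since its downstream neighbour was 401.4 kb away. Zeb1 (0.81 Mb), Twist1 (0.951 Mb), Twist2 (1.22 Mb), Cdh2 (1.68 Mb) and Zeb2 exceeded the upper quartile.

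The number of protein-coding TSSs inside these stretches did not follow their length. The Zeb2 stretch held 2, Zeb2 itself included, and so did that of Cdh2, whereas the Twist2 stretch held 19 and that of Snai3 9. Twist1 and Twist2 thus lay in stretches of similar length (ratio of 1.29) with 2 and 19 protein-coding TSSs. Zeb2 exceeded Zeb1 3.66 times in length, and Cdh2 exceeded Cdh1 14.6 times.

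The motifs at both ends of a stretch could be compared for 4 members when at most 1 mismatch was allowed. They pointed toward each other around Twist2 and Zeb1 and lay on the same strand around Snai1 and Snai3. Both facing pairs rest on less certain directions. The Twist2 site has the overlapping match on the opposite strand described above. At Zeb1 the upstream site held 2 matches, the best of them 748 bp from the centre of a 2280 bp site, and the downstream site held 3. Among the 12474 protein-coding genes with a motif at both ends, 26.0% had motifs pointing toward each other, 27.4% away from each other and 46.5% on the same strand. For the other 6 members at least 1 end had no such motif, as for 43.5% of protein-coding genes. With no mismatch allowed, 1 of the 2 members with a motif at both ends had motifs pointing toward each other, against 28.3% of such protein-coding genes, and with 2 mismatches 6 of 10, against 26.1%. A match with at most 2 mismatches was also met in 49.7% of the intervals 5 kb away from sites. The directions at that level are therefore weakly founded, and no excess of facing motifs is read from them.

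**Figure D5:**
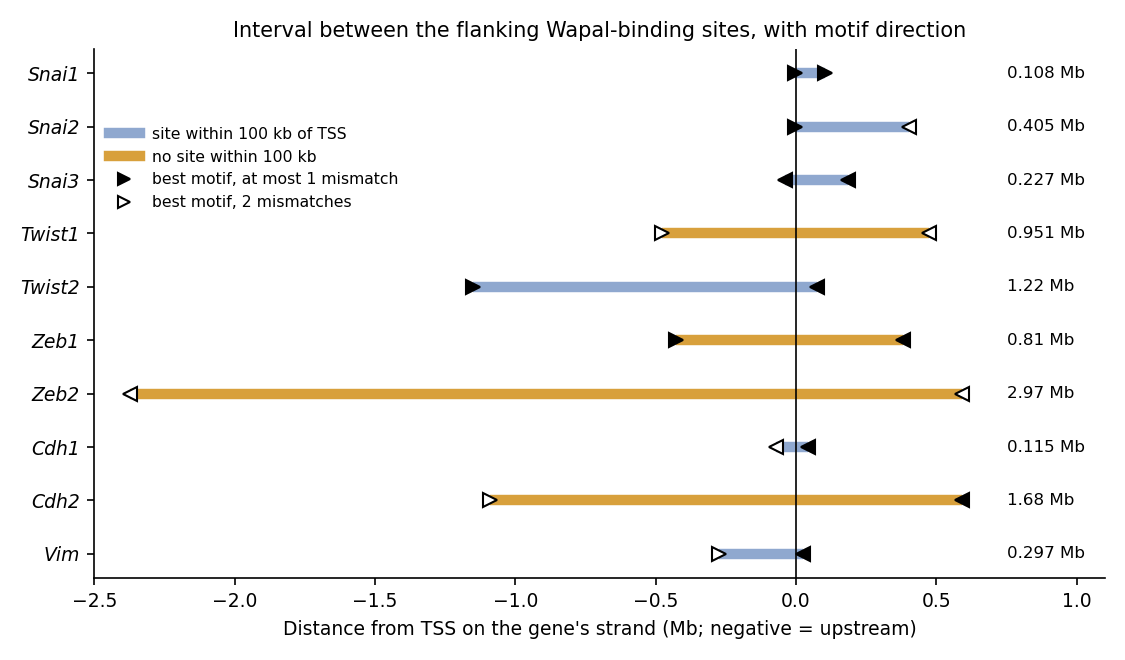
Stretch between the flanking Wapal-binding sites of each member, with the TSS at 0 (x axis, Mb on the strand of the gene, negative upstream) and the length written at right. Bars are blue with a site within 100 kb of the TSS and orange without, and triangles show the direction of the best CTCF core motif in each flanking site, filled with at most 1 mismatch and open with 2. The bars run from 0.108 Mb (Snai1) to 2.97 Mb (Zeb2), and filled triangles face each other around Twist2 and Zeb1.

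A list of 40 further EMT genes was described in the same way. Of these, 5 had a site within 10 kb, 23 within 50 kb and 32 within 100 kb, beside 9.12%, 38.7% and 60.0% of protein-coding genes, and their median distance was 33.95 kb. Neighbouring genes in the list share sites. The site in the Cdh3 intron, for example, was the nearest to Cdh3 at 19.4 kb and the upstream one of Cdh1. The 8 mesenchymal genes had the shortest median distance, 12.3 kb, with 7 within 50 kb. The members Cdh2 (591.8 kb) and Vim (23.04 kb) are not among these 8. Cdh11, a mesenchymal cadherin, had a site 3.67 kb downstream with a score of 194, unlike Cdh2, and Mmp2, a gelatinase that degrades matrix, had one 8.64 kb upstream with a score of 312. Of 13 epithelial genes, such as claudins and keratins, 11 had a site within 100 kb and none within 10 kb. The 8 TGF-beta signalling genes had 5 within 100 kb and a median of 73.0 kb, and of these Tgfb2, a ligand that induces EMT in heart cushions, had the one within 10 kb, 6.16 kb upstream with a score of 89.7. Of the 11 other regulators 9 had a site within 100 kb. Foxc2, a forkhead factor of mesenchyme, had one 2.06 kb upstream with a score of 270, and Esrp2, a splicing factor of epithelial cells, had one 3.32 kb upstream with a score of 83.8.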

How the data were processed

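Per the submitters' processing notes and the methods of the study, the authors used Bowtie on mm9 with unique alignments only, and MACS 1.4.2 to call peaks of each ChIP against input at a p-value of 1e-05. The deposited lists hold the MACS score, and the rule that joined the clones is not given in the sources used here. Any overlap with a BirA region removed a site here, and the authors' own rule for subtraction is not given in the sources used here, so their total may differ. Scores were not compared between lists.

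Genes were located by symbol in GENCODE M1. Distance ran from the edge of a site to the 5′ end of the gene, and features were assigned by the centre of the site. The CTCF core motif was searched in the mm9 sequence (NCBIM37). Functions were tested on simulated data (200 of 200 planted motifs, 500 of 500 distances and 25 of 25 overlaps were recovered). Python 3.11.15, numpy 2.4.6, pandas 2.3.3, statsmodels 0.14.6 and matplotlib 3.10.9 were used. The members and lists were chosen with earlier results of these data known. Genes named are the members, the genes holding or nearest to their sites and EMT genes with a site within 10 kb. Genes named beside or between more distant sites were chosen after their values were seen. With 1 joined list no test was made.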

Additional observations from a re-analysis of the deposited data

How the results depend on the processing

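No paired analysis was possible because both clones are joined in 1 list, and no replicate could be left out for the same reason. Of 66 comparisons of a main value or count with an alternative, 45 moved by less than the limits set. So did 37 of the nearest distances of single members, whereas 23 moved by more. In these tallies, the settings that kept BirA regions or widened their removal could change little. No BirA region or removed region lay within 100 kb of a member TSS. The limits also differed between values. A fall from 32 to 23 of the 40 further genes, with a window of 50 kb, lay within them. A change from 401.9 to 401.7 kb for the Twist genes lay beyond them. A score of at least 100 changed most: it left 1 member with a site (27.8% of protein-coding genes), 1 member site with a width of 687 bp, a score of 194.1 and the motif in 1, a median distance of 452.0 kb, 19 of the 40 further genes with a site and 4 of 7 members with facing motifs (23.3% of protein-coding genes with a motif at both ends). Under it Snai1 exceeded Snai2 in distance by 142.7 kb, Snai3 exceeded Snai2 by 182.8 kb, and the difference of Twist1 less Twist2 turned from 401.9 to -674.0 kb, since the Twist2 site scored below 100. Distances to the centre of a site gave differences of 1.499 kb (Snai1 less Snai2), 36.06 kb (Snai3 less Snai2) and 401.7 kb (Twist1 less Twist2) and a median of 58.73 kb, and the nearest TSS of any transcript a median of 57.8 kb. Over all GENCODE M1 genes the share with a site was 55.2%. A window of 200 kb held 11 sites. Facing motifs numbered 1 of 2 members with 0 mismatches (28.3% of protein-coding genes) and 6 of 10 with 2 (26.1%). Matches at the latter level were also met in 49.7% of the intervals 5 kb away. Without read counts, the precision of single scores is unknown.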
